A study of Mus musculus with 36 samples.

Results

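Theta-burst stimulation of hippocampal slices from vehicle-treated T41B mice was compared with a sham procedure in a second slice of the same animals. The comparison used 8 of the 36 libraries of the series, chosen by their labels alone: genotype T41B, vehicle treatment, and 1 stimulated and 1 sham library from each of 4 mice, labelled Mouse1510, Mouse1551, Mouse1553 and Mouse1579. T41B mice carry human APP with the London and Swedish mutations in a Thy1 cassette (Thy1-hAPPLond/Swe, Line 41). This is an amyloid model of Alzheimer's disease in which the Thy1 promoter drives the transgene mainly in neurons, and mouse App is still present. Vehicle was given to the animals by oral gavage over 3 months, starting at 13 and ending at 16 months. Of the slices cut from the right hippocampus, 1 was given 3 rounds of theta bursts, each of 10 bursts 200 ms apart, where a burst is 4 stimuli at 100 Hz. The sham slice was handled for the same time without the bursts, and each slice was frozen immediately afterwards. Vehicle-treated wild-type C57BL/6 mice, with the same dosing, ages and slice procedures (8 libraries, Mouse1509, Mouse1513, Mouse1522 and Mouse1524), entered the same fit, where they share in the filter and the estimate of spread, and show where the T41B response differed. Libraries of mice given the compound BD10-2 entered only alternative fits.

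Theta-burst stimulation imitates the bursting of hippocampal cells during exploration and is a standard way to induce long-term potentiation, a lasting strengthening of synapses. Neuronal firing raises calcium and induces immediate-early genes such as Fos, Arc and Egr1 through CREB and serum response factor. Microglia, the resident macrophages of the brain, keep a homeostatic programme (P2ry12, Tmem119, Cx3cr1) and can, through Toll-like and interleukin-1 receptors, switch on NF-kappaB and then type I interferon, which acts on neighbouring cells through its receptor.

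The T41B libraries held between 15417159 and 23062861 expected counts, which RSEM assigns to genes and which were rounded before testing. Mitochondrially encoded genes took 2.46% to 5.08% of counts, and the 10 most abundant genes 14.5% to 19.9%, with the highest share in the sham slice of Mouse1553. Thy1, whose regulatory sequence drives the transgene, was between 1030 and 2530 CPM (counts scaled by library size) in the T41B libraries and between 281 and 396 CPM in wild-type, so every library stood on the side its genotype label gives. Thy1 and mouse App were not called between the slices (log2 fold change 0.07, standard error (SE) 0.12, and 0.02, SE 0.06). The 2 slices of a mouse carry the same batch label (A for Mouse1510, G for Mouse1551 and Mouse1553, C for Mouse1579), so no batch difference lies between stimulated and sham slices. Among the sham slices, Mouse1553 stood furthest from the others over all genes (chi-square per degree of freedom 40.2 to 76.8 against each of them, and 17.8 to 29.2 among them). Its sham slice had the highest choroid plexus sum (515 CPM, against 16.7 to 132 CPM) and the lowest endothelial sum (94.3 CPM, against 165 to 224 CPM). The sham slice of Mouse1551 had the highest summed levels of microglial markers (1139 CPM for the homeostatic list, against 748, 929 and 928 CPM in Mouse1510, Mouse1553 and Mouse1579). Without Mouse1553, 3782 genes were called between stimulated and sham T41B slices in place of 4565.

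Stimulated slices of T41B mice showed a broad rise of inflammatory genes, among them interleukin-1, chemokines, NF-kappaB targets and interferon-stimulated genes, together with a fall of the genes that mark resting microglia. Of 16 listed astrocyte genes 10 rose (6 to 9 with 1 T41B mouse left out), and some endothelial genes rose. Of 22 immediate-early genes 8 rose and 2 fell, the latter Egr1 and Fosb, and the classical members Fos and Arc were not called. Called genes of synaptic transmission changed by small factors, and their number depended on the processing. Of 18513 genes tested, 4565 were called at an edgeR adjusted p under 0.05 (24.7%), 2723 of them higher (14.7%) and 1842 lower (9.95%) in stimulated slices. The higher genes reached further: 387 were at least 4-fold higher and 50 at least 4-fold lower, and the median log2 fold change was 0.67 among the higher and -0.46 among the lower genes. All 4 mice moved in the called direction for 2665 of the higher and 1747 of the lower genes. Among genes with an annotated class, protein-coding genes made up 79.5% of those tested, 90.0% of the higher and 91.0% of the lower genes.

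The number of lower genes depended on the processing more than the number of higher genes. It was 988 (beside 1949 higher) without Mouse1551 and 1161 (beside 2120 higher) without the pairing of slices by mouse. A fit of the 8 T41B libraries alone called 3250 genes, 1996 higher and 1254 lower. Scaling the libraries by their upper quartile in place of TMM, the trimmed mean of M-values, moved the median log2 fold change of all genes from -0.01 to -0.11, and 2067 genes were then higher and 3697 lower, so that 35.9% of the called genes were higher against 59.65% under TMM. The median of a list near 0 can change its sign under that scaling, and this is stated where it happens.

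**Figure D1:**
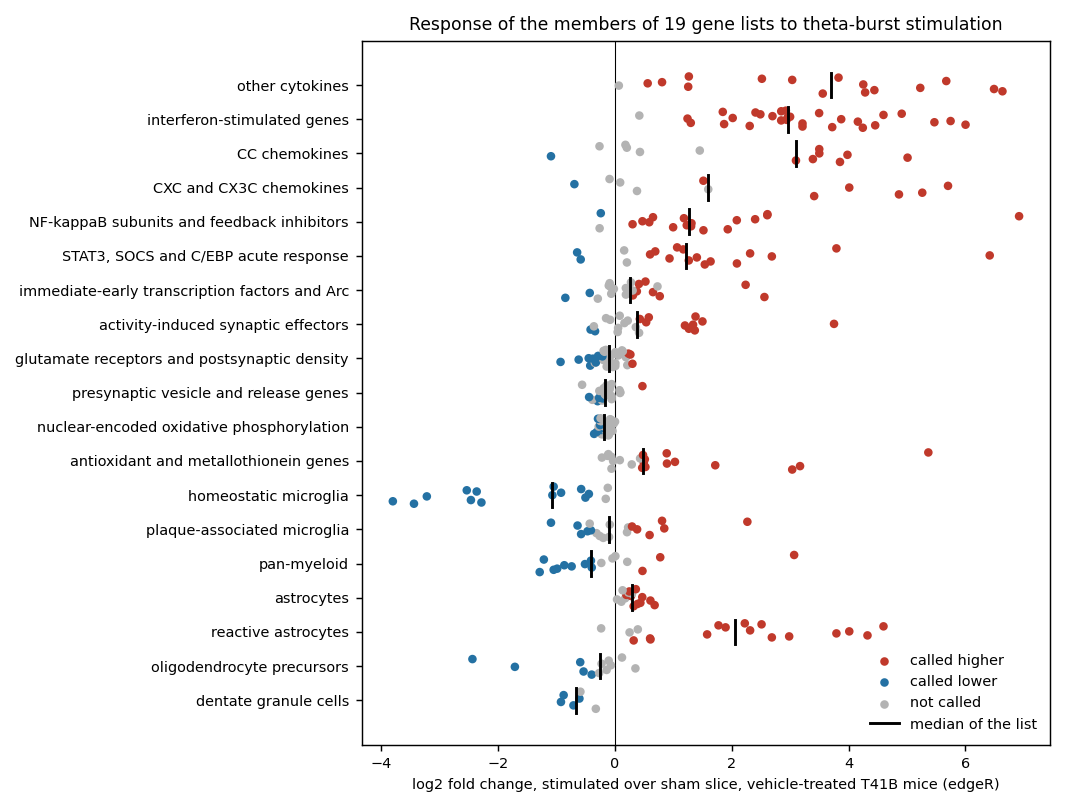
Log2 fold change, stimulated against sham, of every tested gene of 19 lists in vehicle-treated T41B slices; each point is a gene, red where called higher, blue where called lower and grey where not called, and the black bar is the list's median. Interferon-stimulated genes (median 2.96) and cytokines other than the interleukin-1 family (median 3.69) lie almost wholly above 0, homeostatic microglial genes (median -1.07) below 0, and glutamate receptor genes around 0.

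Among the largest rises were several immune genes that were close to undetected in sham slices. Slfn4, a Schlafen family gene of activated macrophages, went from 1 count summed over the 4 sham slices to 652 in the stimulated slices, a ratio of 646 with an exact 95% interval of 116 to 25600 that covers counting error only. For Clec4e, the receptor Mincle, the sums were 1 and 169 (ratio 168, 29.7 to 6660). For Il10, an anti-inflammatory cytokine, they were 2 and 246 (ratio 122, 33.4 to 1010), and for Saa3, a serum amyloid A gene, 2 and 221 (ratio 110, 30 to 910). Slfn4 belongs to a family of near-identical copies, as do Ifi205 and the Gbp, Oasl, Naip and H2 genes, among which the counting may divide reads, so their values are uncertain.

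Il1b, the precursor of the secreted cytokine interleukin-1 beta, was among the largest rises with a measurable sham level. Il1b (ENSMUSG00000027398, chr2:129364570-129371139, minus strand) stood at 0.622, 2.84, 3.66 and 0.259 CPM in the sham slices of Mouse1510, Mouse1551, Mouse1553 and Mouse1579, an order kept for all values per mouse from here on. It stood at 258, 433, 362 and 384 CPM in their stimulated slices. Every stimulated slice was far above every sham slice, 202-fold by the fit (7.66 on the log2 scale with an SE of 0.36; edgeR adjusted p 8.1e-08). Il1rn, the secreted antagonist of the same receptor, went from 0.124, 1.62, 5.11 and 0.57 CPM to 221, 436, 295 and 172 CPM (log2 fold change 7.35, SE 0.39). Agonist and antagonist thus rose by similar factors, again with no overlap between the slices. Il1a, the other agonist, rose less from a higher sham level, from 41.1, 83.2, 61.0 and 49.1 CPM to 355, 417, 250 and 346 CPM (log2 fold change 2.57, SE 0.25). Of 15 listed genes of the interleukin-1 family and its receptors, 10 passed the filter on low counts, 6 rose and none fell. The receptor chains Il1r1 (log2 fold change 0.19, adjusted p 0.53) and Il1rap (0.23, adjusted p 0.15) and the alarmin Il33 (0.10, adjusted p 0.46) were not called.

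Other secreted cytokines rose along with interleukin-1. Of 20 listed, 16 passed the filter, 15 rose and none fell, with a median log2 fold change of 3.69 against -0.01 over all genes tested. Members near 0 in sham slices passed the filter only through stimulated slices, so this count and median are in part set by the filter. Il12b, the p40 subunit that interleukin-12 and interleukin-23 share, went from 0.186, 1.27, 0.825 and 0.0519 CPM to 34.8, 58.5, 62.9 and 55.4 CPM (log2 fold change 6.49, SE 0.30). Il23a, the partner that makes interleukin-23, went from 0.186, 0.049, 0.206 and 0.104 CPM to 3.17, 5.49, 4.95 and 7.69 CPM (log2 fold change 5.23, SE 0.39). Sham slices of all mice lay under every stimulated slice for both subunits. Il6 rose from 3.17, 2.55, 2.01 and 2.75 CPM to 46.9, 59.5, 55.2 and 42.7 CPM (log2 fold change 4.28, SE 0.20, edgeR adjusted p 7.5e-08), and its relatives Il11 (4.44) and Csf3 (5.67), the granulocyte growth factor, rose as well. Tnf, a main activator of NF-kappaB, rose from 12.1, 35.8, 27.6 and 16.7 CPM to 225, 305, 192 and 317 CPM (log2 fold change 3.56, SE 0.27). Ifnb1, the type I interferon induced by pattern recognition, had a log2 fold change of 3.04 with an SE of 0.57 and an edgeR adjusted p of 0.00281. Il34, a survival factor for microglia that neurons release, was not called (0.07, adjusted p 0.79).

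Chemokines, which guide leukocytes, rose in most but not all cases. Among CC chemokines 18 were listed, 13 passed the filter, 7 rose and 1 fell. Ccl2, the monocyte attractant, rose from 5.10, 6.71, 5.004 and 5.08 CPM to 77.2, 99.3, 83.2 and 59.5 CPM (log2 fold change 3.85, SE 0.16). The others that rose by the largest factors were Ccl5 (log2 fold change 5.01), Ccl7 (3.98), Ccl9 (3.50), Ccl22 (3.50) and Ccl4 (3.39). Ccl6 fell in every mouse, from 5.28, 9.12, 8.25 and 7.62 CPM to 2.16, 4.62, 3.83 and 3.71 CPM (log2 fold change -1.10, SE 0.16). Among CXC and CX3C chemokines 13 were listed, 11 passed the filter, 6 rose and 1 fell. Cxcl10, a T cell attractant induced by interferon and NF-kappaB, rose from 31.01, 59.8, 46.2 and 35.4 CPM to 551, 760, 958 and 516 CPM (log2 fold change 4.01, SE 0.14, edgeR adjusted p 1e-08). The related Cxcl11 (5.70) and the neutrophil attractants Cxcl3 (5.26), Cxcl2 (4.86) and Cxcl1 (3.41) rose too. Cxcl12, made by vessels and neurons without stimulation, fell (-0.69), and the neuronal chemokine Cx3cl1 was not called (-0.09, adjusted p 0.41).

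Of 16 chemokine receptors listed, 9 passed the filter, 3 rose and 1 fell. Ccr7, the lymph node homing receptor, went from 0.124, 0.490, 0.258 and 0.104 CPM to 8.597, 15.9, 21.3 and 12.2 CPM (log2 fold change 5.85, SE 0.29), with no overlap. The receptor that fell was Cx3cr1, which microglia use to sense Cx3cl1: it went from 55.4, 108, 70.6 and 80.5 CPM to 12.2, 13.2, 12.1 and 18.5 CPM, 5.53-fold lower (log2 fold change -2.47, SE 0.15). Its highest stimulated slice was far under its lowest sham slice.

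**Figure D2:**
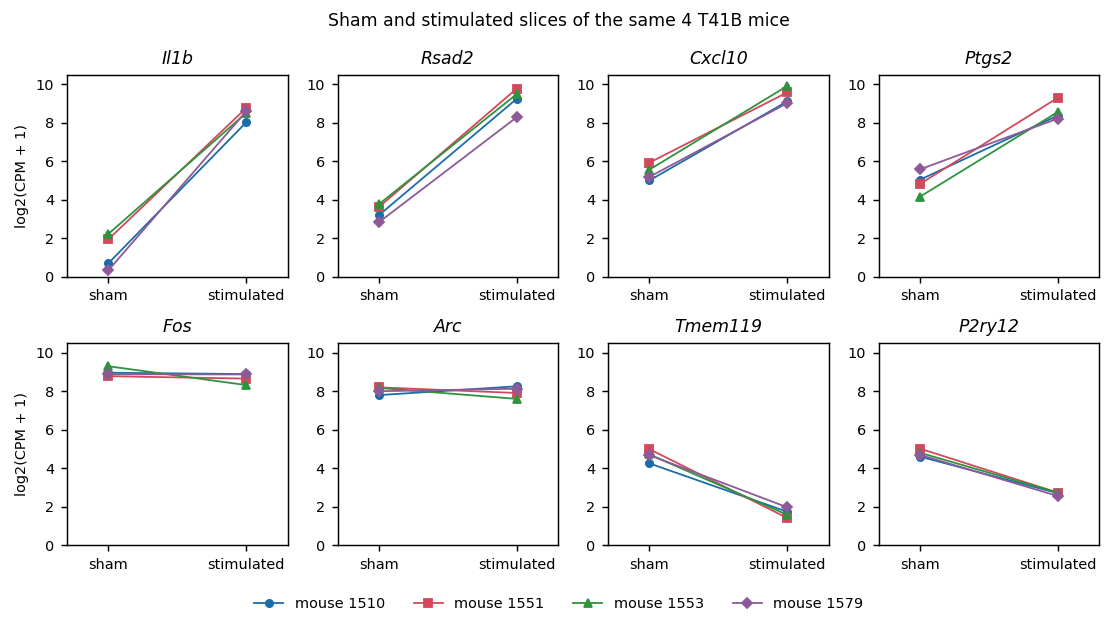
Level of 8 genes, as log2(CPM + 1), in the sham and the stimulated slice of each vehicle-treated T41B mouse; each line joins the 2 slices of a mouse. Il1b, Rsad2, Cxcl10 and Ptgs2 are higher and Tmem119 and P2ry12 lower in the stimulated slice of all 4 mice, while Fos and Arc overlap between the slices, with Arc higher in 2 mice and lower in 2.

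Most targets and regulators of NF-kappaB rose: of 18 listed and tested, 16 rose and 1 fell, with a median log2 fold change of 1.27. The feedback inhibitors rose strongly. Tnfaip3, the ubiquitin-editing enzyme A20, rose from 50.8, 85.6, 62.8 and 61.9 CPM to 305, 390, 336 and 329 CPM (log2 fold change 2.40, SE 0.12, edgeR adjusted p 1.4e-07). Traf1, an adaptor of TNF receptors, rose by 2.61, Bcl3 by 2.09, and the subunit genes Nfkb2 by 1.93 and Nfkb1 by 1.51. Nfkbia, which encodes the inhibitor IkappaB alpha and is described here although the naming rule did not pick it, rose from 86.5, 118, 118 and 105 CPM to 231, 254, 257 and 253 CPM, 2.34-fold, with no overlap. Cyld, a deubiquitinase that restrains the pathway, fell slightly (-0.24), and the subunit gene Rel was not called (-0.26, edgeR adjusted p 0.064). Falls in the list numbered 0 to 2 with 1 T41B mouse left out and 2 under upper-quartile scaling.

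Interferon-stimulated genes rose almost without exception. All 29 listed genes passed the filter, 28 rose and none fell, with a median log2 fold change of 2.96, and the count of 28 was the same in each alternative processing tried. Rsad2, the antiviral enzyme viperin, rose from 8.14, 11.3, 12.6 and 6.12 CPM to 605, 874, 715 and 311 CPM (log2 fold change 6.00, SE 0.19, edgeR adjusted p 8.1e-09). Oasl1 (5.75), Mx1 (5.47), Gbp5 (4.91) and the ubiquitin-like modifier Isg15 (4.46) rose by comparable factors. The guanylate-binding protein gene Gbp2 rose 24.2-fold, from 6.71, 16.8, 8.77 and 8.50 CPM to 197, 351, 330 and 129 CPM. The exception was Bst2, the virus tether tetherin, whose values overlapped between slices: 3.48, 15.8, 6.04 and 4.41 CPM in sham against 7.77, 11.4, 11.1 and 5.21 CPM in stimulated slices (log2 fold change 0.42, adjusted p 0.30). Genes of the STAT3 and acute-phase list also rose in most cases (14 of 18, with 2 falls and a median of 1.22). Among them Socs3, the feedback inhibitor of cytokine receptors, rose from 113, 105, 129 and 134 CPM to 316, 398, 438 and 350 CPM (log2 fold change 1.64, SE 0.13), Timp1 by 3.79 and Lcn2 by 2.69, and Osmr, the oncostatin M receptor, from 78.6, 57.9, 24.2 and 76.3 CPM to 236, 334, 356 and 203 CPM (2.31, SE 0.33). The subunit gene Il6ra fell (-0.65).

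Some promoters of these genes hold letters that the factors of these pathways are known to recognise, and others do not: the windows of Il1b, Il12b and Clec4e, among the largest rises, hold no match to any of the 4 motifs searched. Shown are the 250 bases before the start site, 5' to 3' on the gene's strand (RefSeq, GRCm38.p6), of 2 interferon-stimulated genes, an NF-kappaB feedback gene, a matrix protease gene that rose, and a microglial gene that fell, the first 4 picked as examples with a match. They are Cxcl10 (chr5:92348890-92349139, minus strand), Rsad2 (chr12:26456453-26456702, minus strand), Nfkbia (chr12:55492648-55492897, minus strand), Mmp13 (chr9:7272264-7272513, plus strand) and P2ry13 (chr3:59210883-59211132, minus strand). Capitals mark matches, on either strand, to the AP-1 motif TGANTCA, the CRE motif TGACGTCA, the core of the interferon-stimulated response element (ISRE) AAANNGAAA, and the NF-kappaB motif. None of the matches in these windows overlaps a match to another motif.
Cxcl10: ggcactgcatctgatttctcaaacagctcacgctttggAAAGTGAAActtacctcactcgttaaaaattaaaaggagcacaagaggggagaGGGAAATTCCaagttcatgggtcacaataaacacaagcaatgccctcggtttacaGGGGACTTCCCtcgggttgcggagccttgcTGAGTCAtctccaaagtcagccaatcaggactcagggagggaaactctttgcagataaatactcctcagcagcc
Rsad2: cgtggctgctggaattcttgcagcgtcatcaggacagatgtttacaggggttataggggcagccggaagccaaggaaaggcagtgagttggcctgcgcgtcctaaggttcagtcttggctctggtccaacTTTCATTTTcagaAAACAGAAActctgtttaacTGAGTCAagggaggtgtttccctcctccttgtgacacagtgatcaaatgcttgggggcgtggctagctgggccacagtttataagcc
Nfkbia: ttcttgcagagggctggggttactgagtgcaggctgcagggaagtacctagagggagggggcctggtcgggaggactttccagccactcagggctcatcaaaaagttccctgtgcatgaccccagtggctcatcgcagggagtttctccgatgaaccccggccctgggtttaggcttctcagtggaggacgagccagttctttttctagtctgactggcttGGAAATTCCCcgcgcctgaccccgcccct
Mmp13: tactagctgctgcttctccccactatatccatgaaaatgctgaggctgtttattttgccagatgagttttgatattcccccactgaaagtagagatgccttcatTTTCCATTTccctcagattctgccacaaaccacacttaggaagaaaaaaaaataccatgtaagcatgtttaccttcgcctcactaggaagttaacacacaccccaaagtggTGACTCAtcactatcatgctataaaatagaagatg
P2ry13: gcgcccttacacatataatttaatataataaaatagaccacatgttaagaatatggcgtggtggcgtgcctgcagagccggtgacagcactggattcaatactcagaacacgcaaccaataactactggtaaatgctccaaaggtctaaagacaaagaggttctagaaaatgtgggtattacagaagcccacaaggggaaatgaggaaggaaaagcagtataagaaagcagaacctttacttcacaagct
In Cxcl10 the capitals are an ISRE core 212 bases before the start, NF-kappaB matches at 159, 104 and 103 bases (the last 2 overlapping each other) and an AP-1 match at 74 bases. Rsad2 holds ISRE cores at 120 and 107 bases and an AP-1 match at 87 bases, Nfkbia an NF-kappaB match at 29 bases, and Mmp13 an ISRE core at 146 and an AP-1 match at 35 bases. In P2ry13 none of the 4 motifs matched in this window, which says only that these letters are not there.

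Motif matches were counted in windows from 250 bases before to 50 bases after the start, over the 12080 tested genes with a RefSeq promoter. The ISRE core was in 35.0% of the 243 genes that were at least 4-fold higher, in 11.4% of the 35 genes at least 4-fold lower and in 9.74% of all tested genes. For AP-1 the shares were 23.9%, 2.86% and 6.40%, for NF-kappaB 18.5%, 14.3% and 12.5%, and for CRE 0.823%, 0% and 3.37%. Over the 27025 symbols with a promoter, tested or not, they were 12.1% (ISRE core), 8.97% (AP-1), 9.55% (NF-kappaB) and 2.03% (CRE). The ISRE core was in 17 of the 23 interferon-stimulated genes with a promoter (73.9%), and the NF-kappaB motif in 10 of 15 genes of the NF-kappaB list (66.7%). The windows of the genes at least 4-fold higher were poorer in G and C (median 50.7%) than those of all tested genes (60.3%), and the part of base composition in the shares was not tested. These shares describe letters, not binding.

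**Figure D3:**
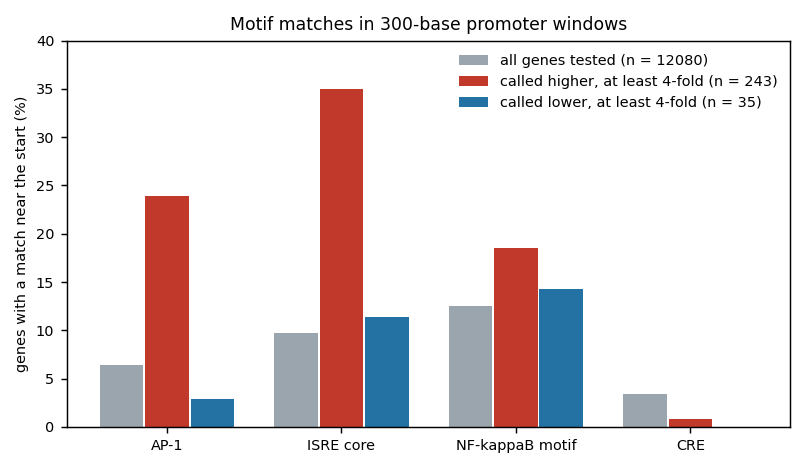
Percent of genes with at least 1 match to each of 4 motifs in a 300-base promoter window, for all 12080 tested genes with a promoter, the 243 at least 4-fold higher and the 35 at least 4-fold lower in stimulated T41B slices. The bars for the ISRE core (35.0%) and AP-1 (23.9%) are tallest in the genes that were higher, and the CRE bar (0.823%) is lower there than in all tested genes (3.37%).

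The immediate-early genes, which neuronal firing switches on first, gave a mixed picture: of 22 listed and tested, 8 rose and 2 fell, with a median log2 fold change of 0.26. With 1 T41B mouse left out 8 to 10 rose and 1 or 2 fell, and 12 rose with no filter on low counts. Fos stood at 498, 440, 629 and 471 CPM in sham and 474, 402, 319 and 468 CPM in stimulated slices (log2 fold change -0.29, SE 0.16, edgeR adjusted p 0.193). Arc, whose protein removes AMPA receptors from synapses, stood at 222, 294, 288 and 255 CPM in sham and 305, 240, 194 and 280 CPM in stimulated slices (-0.07, SE 0.14, adjusted p 0.749). For both genes the slices overlapped. Egr1, a zinc finger factor, fell from 345, 353, 392.3 and 484 CPM to 318, 311, 233 and 303 CPM (-0.43, SE 0.11, edgeR adjusted p 0.0157), without overlap, but was not called without Mouse1553 or without Mouse1579. Fosb fell from 220, 138, 224 and 319 CPM to 124, 108, 97.9 and 157 CPM (-0.85, SE 0.19, adjusted p 0.00719), lower in each mouse although the slices overlapped.

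The members that rose most were Fosl1, an AP-1 subunit that many cell types induce, and Ier3, an NF-kappaB target that limits cell death. Fosl1 rose from 5.22, 5.39, 5.57 and 3.89 CPM to 27.1, 31.9, 40.5 and 20.6 CPM (log2 fold change 2.56, SE 0.15), and Ier3 from 16.2, 20.9, 21.1 and 19.5 CPM to 82.4, 114, 98.5 and 74.5 CPM (2.24, SE 0.09). Fosl2 (0.77), Egr2 (0.65), Maff (0.52) and Ier5 (0.41) rose by smaller factors. Nr4a1, an orphan nuclear receptor, stood at 139, 134, 159 and 185 CPM in sham and 197, 184, 156 and 195 CPM in stimulated slices (0.25, adjusted p 0.101). Npas4, the factor most specific to neuronal calcium entry, stood at 25.7, 18.4, 11.6 and 59.0 CPM in sham and 37.9, 49.9, 35.2 and 39.0 CPM in stimulated slices (0.73, SE 0.30, adjusted p 0.0996). Neither was called, and the sham slice of Mouse1579 had the highest Npas4 level of all T41B libraries.

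Later activity-regulated genes, whose products act at synapses, rose more often than they fell (10 and 2 of 22, median 0.39; 0 to 2 falls with 1 T41B mouse left out, 0 without Mouse1510). Ptgs2 (ENSMUSG00000032487, chr1:150100031-150108227, plus strand), which makes prostaglandins in active neurons and in inflamed tissue, rose most, from 31.8, 27.2, 16.8 and 46.7 CPM to 330, 627, 376 and 296 CPM (3.75, SE 0.33, edgeR adjusted p 8.1e-06). The lowest stimulated slice was several times above its highest sham slice. Nptx2, a pentraxin that gathers AMPA receptors, rose from 25.7, 25.5, 11.3 and 28.7 CPM to 56.0, 67.4, 63.2 and 42.3 CPM (1.37, SE 0.24, adjusted p 0.0018). Plat, tissue plasminogen activator, rose from 52.5, 39.4, 30.6 and 45.4 CPM to 125, 106, 97.2 and 103 CPM (1.38, SE 0.17), and the cAMP-responsive repressor gene Crem by 1.5. Nrn1 (-0.42), a neurite growth factor, and Nptx1 (-0.34) fell. Bdnf, the neurotrophin most tied to potentiation, stood at 36.5, 32.9, 20.5 and 34.4 CPM in sham and 38.4, 40.03, 47.0 and 37.5 CPM in stimulated slices (0.41, SE 0.16, adjusted p 0.0788). It was higher in 4 of 4 mice without being called, and Homer1, a postsynaptic scaffold gene, was not called either (0.05, adjusted p 0.72). Of 11 dual-specificity phosphatase genes, which switch off MAP kinases, 10 were tested, 6 rose and none fell. Dusp2, the member of activated immune cells, rose by 3.34 (SE 0.22), while Dusp6, which follows ERK activity, was not called.

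Called genes of synaptic transmission changed by small factors, and their counts depended on the processing. Over all genes tested, 14.7% were higher and 9.95% lower. Of 38 glutamate receptor and postsynaptic genes, all tested, 3 rose and 8 fell (median -0.10), with 5 to 10 falls when 1 T41B mouse was left out, and no rise and 13 falls under upper-quartile scaling. Grm2, a presynaptic brake on glutamate release, fell most, from 52.3, 72.1, 49.0 and 42.7 CPM to 32.1, 21.4, 24.1 and 35.6 CPM (-0.93, SE 0.20, edgeR adjusted p 0.0056). The highest stimulated slice was under the lowest sham slice. Grm8 (-0.62) and the kainate receptor genes Grik3 (-0.45) and Grik2 (-0.38) also fell, whereas Grin2c (0.30) and the scaffold genes Shank1 (0.26) and Shank3 (0.23) rose. Camk2a, the kinase that potentiation requires, was not called (0.01, adjusted p 0.98), nor was the NMDA receptor gene Grin2b (-0.10, adjusted p 0.60). Among 26 presynaptic genes 1 rose (Sv2c, 0.47) and 4 fell, among them Syn3 (-0.44) and Snap25 (-0.30), and the falls numbered 0 to 4 with 1 T41B mouse left out and 12 under upper-quartile scaling. Of 31 voltage-gated channel genes 1 rose (Cacna1g, 0.51) and 4 fell, led by Scn3b (-0.41), with 2 to 7 falls when 1 T41B mouse was left out. Of 20 GABA genes 1 rose, the glial transporter gene Slc6a11 (0.37), and none fell, but 0 to 6 fell with 1 T41B mouse left out (6 without Mouse1553) and 4 under upper-quartile scaling.

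Some glycolysis genes rose and some nuclear respiratory chain genes fell, beside 14.7% of all genes tested higher and 9.95% lower. A difference between these steps was not tested. Of 22 glycolysis genes 7 rose and none fell, led by Hk2, the inducible hexokinase, which went from 13.4, 18.9, 16.2 and 17.7 CPM to 76.5, 112, 93.8 and 67.8 CPM (log2 fold change 2.39, SE 0.12). Pfkfb3 (1.49), whose product speeds glycolysis, the lactate carrier gene Slc16a1 (0.90) and the glucose carrier gene Slc2a1 (0.83) rose as well. The enzymes of the central steps, Gapdh (-0.03), Pkm (0.04) and Aldoa (-0.09), were not called, and the list's median was 0.02. With 1 T41B mouse left out 4 or 5 of the list rose, and under upper-quartile scaling 4 rose, 3 fell and the median was -0.08. Of 36 nuclear genes of the respiratory chain none rose and 8 fell (median -0.19), among them Ndufs4 (-0.36), Ndufv2 (-0.31) and Atp5c1 (-0.29). That count was 2 to 10 with 1 T41B mouse left out and 23 under upper-quartile scaling. None of the 13 mitochondrially encoded genes was called by edgeR in the main fit (median 0.12). With 1 T41B mouse left out 0 to 1 rose, and up to 4 in other alternatives. Their median was 0.02 under upper-quartile scaling. In the list of antioxidant and itaconate genes 12 of 21 rose and none fell. Acod1, which makes itaconate in activated macrophages, went from 1.62, 5.15, 4.798 and 0.933 CPM to 104, 186, 111 and 91.5 CPM (5.37, SE 0.25), Hmox1, heme oxygenase, from 7.33, 13.0, 29.6 and 7.10 CPM to 80.3, 171, 135 and 52.2 CPM (3.04, SE 0.21), and the cystine carrier gene Slc7a11 rose by 3.17. Of 22 heat shock genes 5 rose and none fell, among them Bag3 (1.03), Hspb8 (0.60) and the near-identical pair Hspa1a (0.58) and Hspa1b (0.65). With 1 T41B mouse left out 3 to 5 rose, and under upper-quartile scaling 2 fell and the list median went from 0.07 to -0.03.

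Antigen presentation rose for class I and was divided for class II. Of 15 class I genes 13 rose and none fell (median 0.79), with 11 to 14 rises when 1 T41B mouse was left out and 8 without the pairing by mouse. The peptide pump gene Tap1 rose from 7.21, 16.2, 8.62 and 10.3 CPM to 65.1, 100.0, 91.6 and 51.2 CPM (log2 fold change 2.87, SE 0.18), and Nlrc5, the class I transactivator, by 3.30. B2m, the light chain, was not called (0.29, adjusted p 0.12). In the list of class II and costimulation genes 13 of 14 were tested, 6 rose and 3 fell. The ones that rose were regulators and costimulators, led by Cd40 (4.83) and the checkpoint ligand gene Cd274, which went from 11.3, 22.4, 13.3 and 10.7 CPM to 327, 475, 455 and 201 CPM (4.64, SE 0.18). The ones that fell encode class II chains or their chaperones, H2-DMb1 (-1.50), H2-Eb1 (-1.02) and H2-Aa (-0.94), and this count was 0 to 5 with 1 T41B mouse left out (0 without Mouse1551) and 6 under upper-quartile scaling.

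Sensor and complement lists held rises and falls side by side. Of 21 Toll-like receptor pathway genes 19 were tested, 8 rose and 4 fell (2 or 3 falls with 1 T41B mouse left out). Cd14, the co-receptor for endotoxin, rose from 19.02, 40.2, 29.4 and 28.99 CPM to 241, 438, 328 and 289 CPM (log2 fold change 3.47, SE 0.09, edgeR adjusted p 1e-09), and Myd88 (1.55), Tlr3 (1.33) and Tlr2 (1.31) rose. Tlr13 (-1.49), Ticam2 (-1.43) and Tlr4 (-0.76) fell. Of 16 inflammasome genes 13 were tested, 4 rose and 3 fell (5 under upper-quartile scaling). The sensor gene Nlrp3 rose from 19.1, 35.7, 23.9 and 26.2 CPM to 60.5, 97.8, 59.1 and 67.8 CPM (1.45, SE 0.07), whereas Pycard, the adaptor that joins sensor to caspase, fell from 2.67, 4.12, 3.15 and 3.16 CPM to 0.460, 0.462, 0.445 and 0.391 CPM (-2.86, SE 0.32). Neither gene's slices overlapped. Of 20 complement genes 18 were tested, 5 rose and 6 fell. Cfb (2.75), of the alternative pathway, and the anaphylatoxin receptor genes C5ar1 (1.8) and C3ar1 (1.002) rose, while C1qa, made by microglia, fell from 75.5, 172, 120 and 110 CPM to 42.4, 79.5, 55.0 and 59.4 CPM (-0.99, SE 0.12). C1qa was lower in 4 of 4 mice, and the stimulated slice of Mouse1551 lay above the sham slice of Mouse1510. C3 was not called (-0.24, adjusted p 0.42). Of 18 Fc receptor and Syk pathway genes 16 were tested, 3 rose and 6 fell, with the kinase gene Syk (1.37) and Clec4d (4.05) among the first and the lipid phosphatase gene Inpp5d (-1.93) and Card9 (-1.81) among the second.

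The homeostatic genes of microglia fell almost throughout: of 15 listed genes, all tested, none rose and 13 fell (median log2 fold change -1.07), and 12 to 15 fell in each alternative tried. P2ry13 (ENSMUSG00000036362, chr3:59207892-59210882, minus strand), an ADP receptor, fell from 9.26, 15.4, 10.9 and 11.8 CPM to 0.919, 0.693, 0.889 and 0.782 CPM, 14-fold lower (-3.80, SE 0.29, edgeR adjusted p 3.4e-06). Tmem119 (ENSMUSG00000054675, chr5:113793729-113800516, minus strand), a membrane protein that marks microglia against other macrophages, fell from 18.1, 30.9, 25.3 and 24.6 CPM to 2.35, 1.68, 2.00 and 2.93 CPM, 10.9-fold lower (-3.44, SE 0.26). P2ry12, the ADP receptor that steers microglial processes, fell from 23.4, 31.5, 26.98 and 24.9 CPM to 5.52, 5.66, 5.67 and 4.89 CPM, 4.88-fold lower (-2.29, SE 0.10). In each of these genes the highest stimulated slice was far under the lowest sham slice. Gpr34 (-3.22), a lysophospholipid receptor gene, the fructose carrier gene Slc2a5 (-2.54) and Selplg (-2.37) fell by comparable factors, and Csf1r, the receptor microglia need to survive, fell by 1.05. Sall1, a factor that sets microglial identity (-0.16, adjusted p 0.18), and Bin1 (-0.12, adjusted p 0.19), which other brain cells express too, were not called. P2ry12 and P2ry13 lie inside Med12l, and Gpr34 inside Cask, on the opposite strand. In bulk slices, fewer cells of a type and less RNA per cell cannot be told apart.

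Other genes among the largest falls were Mlph (-3.34), Crocc2 (-2.95) and several known mainly from leukocytes, Klhl6 (-2.93), Fgd2 (-2.76), Rasal3 (-2.63), Il21r (-2.58) and Nfam1 (-2.54). Slco1a4, an organic anion carrier of brain vessels, fell from 15.2, 12.3, 5.83 and 13.6 CPM to 2.53, 2.60, 1 and 1.37 CPM (log2 fold change -2.64). Summed over the homeostatic list, the level was 748, 1139, 929 and 928 CPM in sham and 479, 564, 499 and 513 CPM in stimulated slices, so that no stimulated slice reached the lowest sham slice. Genes of microglia around amyloid plaques, which matter in this model, did not follow. Of 19 listed and tested, 6 rose and 5 fell (median -0.10; 2 falls without the pairing by mouse and 8 under upper-quartile scaling), and their summed level was 2374, 3682, 3074 and 3003 CPM in sham and 2768, 3896, 3267 and 3100 CPM in stimulated slices. Lgals3, galectin-3, rose from 2.11, 4.12, 6.66 and 3.37 CPM to 17.6, 32.1, 15.4 and 13.6 CPM (2.27, SE 0.26), and Cd63 (0.84) and Axl (0.59) rose. Trem2 (-0.47), its adaptor gene Tyrobp (-0.41), Spp1 (-0.58) and Ctsd (-0.64) fell. Cst7 (-0.20, adjusted p 0.128), Itgax (-0.10, adjusted p 0.68) and Apoe (0.21, adjusted p 0.06) were not called.

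Markers shared by macrophages of all kinds were divided too: of 16, all tested, 3 rose and 9 fell. Cybb, the NADPH oxidase subunit, rose from 1.86, 5.24, 2.17 and 3.27 CPM to 21.1, 33.5, 25.1 and 22.02 CPM (log2 fold change 3.07), and the factor Irf8 by 0.78, while Aif1 (-1.29), the antigen IBA1, and Ly86 (-1.22) fell. Markers of blood cells were scarce. Of 14 monocyte and neutrophil genes 1 passed the filter, Csf3r, which fell (-2.11), and 2 were at 0 in all T41B libraries. The list's summed level was 8.76 to 21.3 CPM in sham and 3.13 to 4.68 CPM in stimulated slices. That sum rests largely on Csf3r, since no other member exceeded 10 counts in any library, and it does not measure blood cells as a group. Of 16 lymphocyte genes 1 passed the filter, Ccl5, which activated glia also make.

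Many astrocyte genes rose. Of 16 listed and tested, 10 rose and none fell (median 0.28), with 6 to 9 rises when 1 T41B mouse was left out and 4 without the pairing by mouse. Gja1, the gap junction protein connexin 43, rose from 199, 204, 145 and 182 CPM to 304, 296, 267 and 242 CPM (log2 fold change 0.61, SE 0.08, edgeR adjusted p 0.00019), without overlap. Aqp4, the water channel of astrocyte endfeet, stood at 162, 200.0, 105 and 152 CPM in sham and 229, 249, 311 and 193 CPM in stimulated slices and rose by 0.68, with overlap. The glutamate carrier genes Slc1a3 (0.43) and Slc1a2 (0.39) rose as well. The list of reactive astrocytes changed more: 15 of 18 rose and none fell (median 2.06). Gbp2 (4.60), named above with the interferon genes, Steap4 (4.32) and Cxcl10 (4.01) had its largest rises. Cd44, a hyaluronan receptor gene, went from 13.7, 17.8, 12.02 and 13.7 CPM to 98.7, 140, 139 and 81.9 CPM (2.98, SE 0.21). Activated microglia and vessels express several genes of that list. Gfap, the intermediate filament of astrocytes, rose by a log2 fold change of 0.32 (adjusted p 0.042) from 1139, 1976, 1311 and 1482 CPM to 1497, 1900, 2160 and 1727 CPM, and Mouse1551 went the other way. C3, often used as a marker of reactive astrocytes, was not called.

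Some oligodendrocyte precursor genes fell, whereas mature oligodendrocyte genes varied between mice. Of 12 precursor genes 5 fell and none rose (3 falls without Mouse1551 and 7 under upper-quartile scaling), among them Gpr17, a receptor of cells about to mature, from 12.5, 20.3, 14.5 and 20.3 CPM to 4.60, 5.32, 4.89 and 5.41 CPM (log2 fold change -1.71), Neu4 (-2.44) and Pdgfra (-0.40). Of 12 mature genes 1 fell (5 without Mouse1510), Aspa (-1.08), and Mbp, a main myelin protein, was not called (-0.24, adjusted p 0.59). The summed level of the mature list was 4897, 9063, 10030 and 5959 CPM in sham and 8462, 7979, 3570 and 5486 CPM in stimulated slices, higher in Mouse1510 and lower in the others, and how much white matter each slice held was not measured. Of 16 endothelial genes 4 rose and 1 fell (8 rises without wild-type Mouse1524 and 7 in the fit of T41B libraries alone). Cdh5, the junction protein of vessels, rose from 18.6, 12.3, 5.11 and 11.5 CPM to 102, 90.6, 51.8 and 52.3 CPM (2.69, SE 0.39, edgeR adjusted p 0.00048), and Esam (1.43) and Pecam1 (1.42) rose with it. Of 11 pericyte genes 10 were tested and 2 fell (1 or 2 with 1 T41B mouse left out), led by Higd1b (-3.13).

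A minority of neuronal markers was called lower, beside 9.95% of all genes tested. Of 12 general neuronal genes 1 rose (Nefh, 0.34) and 3 fell, Tubb3 (-0.58), Snap25 (-0.30) and Nefl (-0.28), and the summed level was lower after stimulation in all 4 mice (4146 to 5071 CPM in sham, 3579 to 4613 CPM in stimulated slices). Of 9 excitatory neuron genes 4 fell, the cortical and hippocampal factor genes Tbr1 (-0.66), Neurod6 (-0.56), Emx1 (-0.43) and Neurod1 (-0.42), and of 15 inhibitory neuron genes 2 fell, Adarb2 (-0.58) and Dlx1 (-0.38), a share near that of all genes. With 1 T41B mouse left out, 1 to 3 general, 2 to 4 excitatory and 0 to 4 inhibitory neuron genes fell, and 6, 5 and 7 under upper-quartile scaling. Of 6 dentate granule cell genes 4 fell, Dsp (-0.93), Tdo2 (-0.88), C1ql2 (-0.71) and Trpc6 (-0.61), a count of 0 to 5 with 1 T41B mouse left out (0 without Mouse1551). The summed level of the dentate list was 279 to 625 CPM in sham and 233 to 308 CPM in stimulated slices, and it was lower after stimulation in all 4 mice. None of the 5 CA1 genes or the 9 CA2 and CA3 genes was called by edgeR, while 2 CA1 genes were higher by DESeq2, 3 by edgeR with no filter on low counts, 2 without wild-type Mouse1524 and 1 without Mouse1553. The 5 log2 fold changes of the CA1 list were above 0 (median 0.32) without being called, and its summed level was higher in the stimulated slice of each mouse, at 440, 632, 497 and 424 CPM in sham and 561, 653, 621 and 508 CPM after stimulation. How much of each subfield a slice held was not measured.

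**Figure D4:**
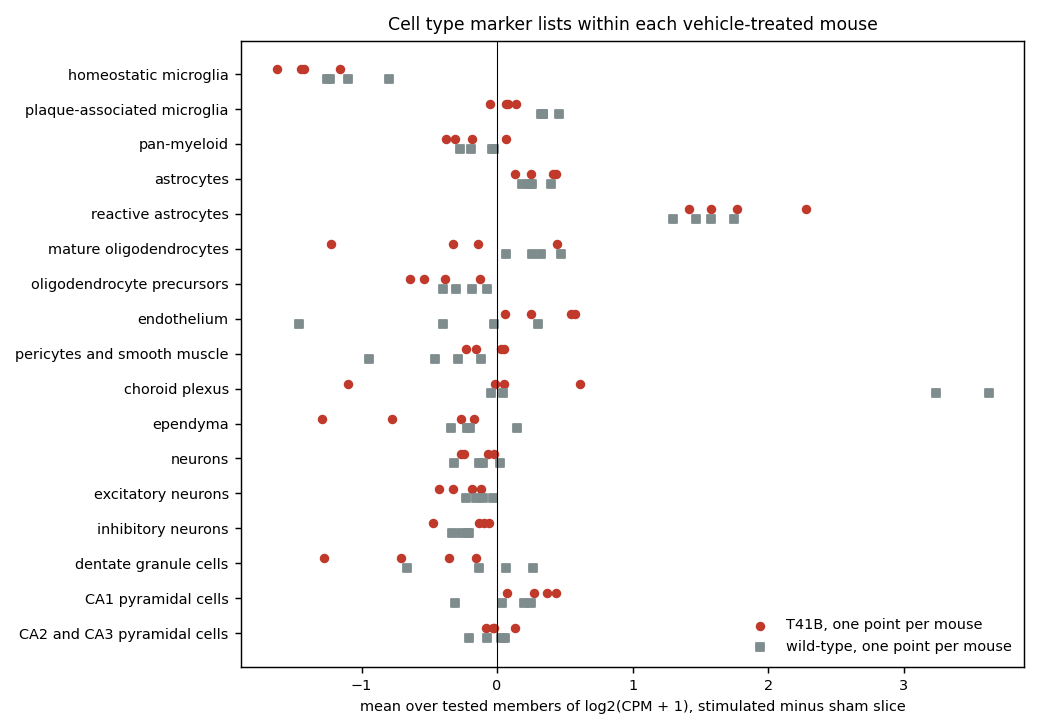
Mean difference of log2(CPM + 1), stimulated minus sham, over the tested genes of 17 cell type lists in each mouse; red circles are the 4 vehicle-treated T41B mice and grey squares the 4 wild-type mice. All T41B mice lie below 0 for homeostatic microglia and above 0 for reactive astrocytes, and the mature oligodendrocyte list has mice on both sides of 0.

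Vehicle-treated wild-type slices showed many of the same changes, with exceptions among the lists, and the difference between the 2 responses was called for few genes. In wild-type slices 3108 of the 18513 genes were called (16.8%), 1868 higher (10.1%) and 1240 lower (6.70%). Of the genes higher in T41B slices 1463 were also higher in wild-type, which is 53.7% of the T41B list and 78.3% of the wild-type list. Of the lower genes 551 were shared, 29.9% of the T41B list and 44.4% of the wild-type list. Interferon-stimulated genes rose in 28 of 29 cases in both genotypes, NF-kappaB genes in 16 of 18 in T41B and 15 in wild-type, and homeostatic microglial genes fell in 13 of 15 and 11. Other lists went different ways. Endothelial genes had 4 rises and 1 fall in T41B slices (median 0.50) and 1 rise and 4 falls in wild-type slices (median -0.50). In wild-type the mean within-mouse difference of that list in log2(CPM + 1) was 0.301, -0.026, -0.403 and -1.46 in Mouse1509, Mouse1513, Mouse1522 and Mouse1524, and the stimulated slice of Mouse1524 had the lowest endothelial sum (70.85 CPM, against 191.5 to 342.1 CPM in the other stimulated slices), whose part in the contrast was not tested. Nuclear respiratory chain genes had 8 falls in T41B (median -0.19) and none in wild-type slices (median 0.07). Their mean within-mouse difference was -0.072, -0.209, -0.316 and -0.073 in T41B Mouse1510, Mouse1551, Mouse1553 and Mouse1579. In the wild-type mice, in the order above, it was -0.063, 0.081, 0.01 and 0.258, so Mouse1510 and Mouse1579 lay close to wild-type Mouse1509. No single gene of these 2 lists was called in the difference, and the lists as wholes were not tested. For single genes the log2 fold changes in T41B and wild-type slices were 7.66 and 7.31 for Il1b, -3.44 and -2.58 for Tmem119, and -0.29 and 0.08 for Fos. Ptgs2 rose by 3.75 in T41B and by 1.72 in wild-type slices, a difference of 2.03 that was not called (adjusted p 0.185). Il23a was called in T41B (5.23) and not in wild-type slices (1.28, adjusted p 0.30), and this difference was not called either. Only Lama1, a laminin chain gene (0.64 and -0.61), and Ucp2, a mitochondrial carrier gene (-0.37 and 0.37), were called in opposite directions, and both names were picked after their values were seen.

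The difference between the responses was called for 5 genes (0.0270%), 4 with a larger rise in T41B slices (0.0216%) and 1 with a smaller one (0.00540%). Malt1 (ENSMUSG00000032688, chr18:65430938-65479067, plus strand), the protease and scaffold that joins immune receptors to NF-kappaB, went from 21.2, 22.9, 13.2 and 16.9 CPM to 77.0, 118, 82.3 and 81.3 CPM in T41B slices, 4.86-fold. In wild-type Mouse1509, Mouse1513, Mouse1522 and Mouse1524 it went from 14.6, 19.5, 15.4 and 13.2 CPM to 29.7, 31.2, 22.4 and 20.9 CPM, 1.66-fold. The difference of the 2 responses was 1.55 (log2 scale; SE 0.17; adjusted p of edgeR 0.0065), and no stimulated wild-type slice reached the lowest stimulated T41B slice.

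Ccrl2 (ENSMUSG00000043953, chr9:111054486-111057519, minus strand), a receptor that binds chemerin and presents it to other cells, rose from 6.34, 12.3, 7.22 and 7.62 CPM to 60.6, 109, 71.1 and 52.3 CPM in T41B slices, 8.70-fold. In wild-type slices it rose 3.19-fold, from 3.67, 2.52, 3.31 and 3.01 CPM to 9.40, 9.95, 10.6 and 10.1 CPM (difference 1.45, SE 0.17, edgeR adjusted p 0.0111). T41B slices were above wild-type slices in sham as well as after stimulation. Daxx (ENSMUSG00000002307, chr17:33909414-33915590, plus strand), a histone chaperone, rose 3.10-fold in T41B slices, from 18.8, 20.2, 22.4 and 15.3 CPM to 57.8, 70.1, 67.6 and 44.0 CPM. In wild-type slices it rose 1.54-fold, from 15.4, 13.7, 15.9 and 17.2 CPM to 24.9, 19.5, 26.6 and 24.7 CPM (difference 1.02, SE 0.10, edgeR adjusted p 0.0065). Mmp14 (ENSMUSG00000000957, chr14:54431612-54445364, plus strand), a membrane-bound matrix protease, rose 3.82-fold in T41B slices, from 11.3, 13.3, 11.7 and 11.2 CPM to 45.0, 61.1, 44.2 and 34.5 CPM, and 1.93-fold in wild-type slices, from 9.64, 9.20, 11.2 and 12.5 CPM to 20.1, 17.2, 22.9 and 21.8 CPM (difference 0.99, SE 0.14, adjusted p 0.0485). For both genes sham levels overlapped between genotypes and stimulated levels did not.

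Slc4a5 (ENSMUSG00000068323, chr6:83219828-83304945, plus strand), a bicarbonate carrier of the choroid plexus, was the gene with the smaller response in T41B slices (difference -6.95, SE 0.73, edgeR adjusted p 0.0065). In wild-type it stood at 0.118, 0.144, 0 and 0 CPM in sham and 12.9, 12.5, 0.129 and 0.601 CPM in stimulated slices, so the rise lay in Mouse1509 and Mouse1513. In T41B slices it stood at 0.311, 1.03, 3.35 and 0.156 CPM in sham and 0.230, 1.91, 1.111 and 0.0651 CPM in stimulated slices. Ttr, transthyretin, the main secreted protein of the choroid plexus, stood at 1070 and 876 CPM in the stimulated slices of wild-type Mouse1509 and Mouse1513, and at no more than 0.863 CPM in the other wild-type libraries. Within the T41B libraries it ranged from 0.0519 to 458 CPM. The choroid plexus list summed to 14.01 to 1214 CPM over the stimulated and 15.7 to 20.6 CPM over the sham wild-type slices, and its part in the Slc4a5 value was not tested.

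Both genotypes were present in batches A and C only, with 1 mouse each; batch G held T41B and batch E wild-type mice alone. Within these batches the difference between genotypes was taken in log2(CPM + 1), not as the log2 fold change of the edgeR fit. It was 1.295 and 1.577 for Malt1, 1.64 and 1.16 for Ccrl2, 0.86 and 0.97 for Daxx, 0.94 and 0.78 for Mmp14, and -0.27 and -0.80 for Slc4a5. Each value rests on a single pair of mice with no test. On that scale the difference over all mice was 1.527 for Malt1, 1.546 for Ccrl2, 0.996 for Daxx, 0.96 for Mmp14 and -2.196 for Slc4a5. None of the 5 was called when slices were not paired by mouse, and none without wild-type Mouse1513 (adjusted p between 0.0566 and 0.23 without that mouse). Mmp14 was called in 3 of 15 alternatives, Ccrl2 in 7, and Malt1, Daxx and Slc4a5 in 11 each.

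**Figure D5:**
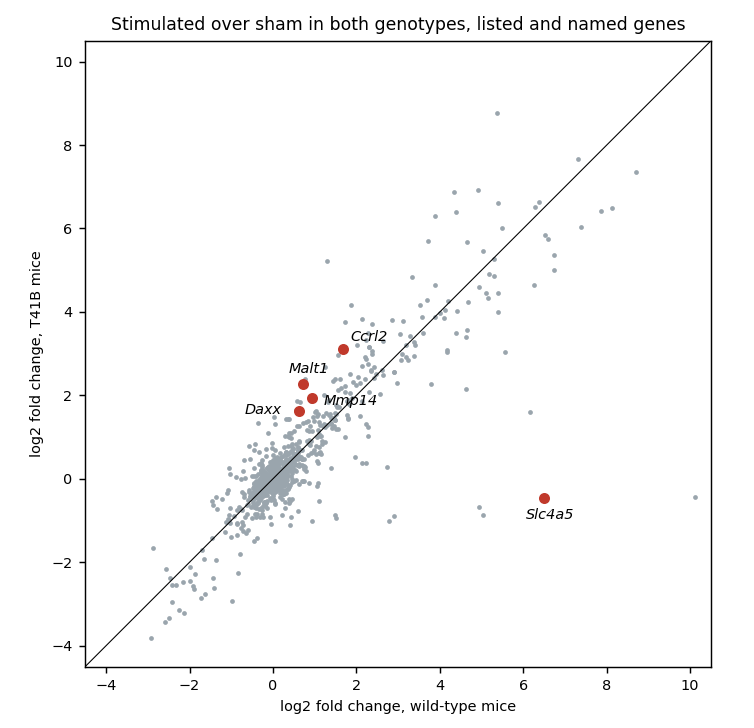
Log2 fold change, stimulated against sham, in wild-type (x axis) and T41B (y axis) slices for 933 listed or named genes; each point is a gene, the line marks equal responses, and the 5 genes called in the difference are in red. Most points lie along the line, with Malt1, Ccrl2, Daxx and Mmp14 above it and Slc4a5 below it.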

How the data were processed

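Stranded, ribosomal RNA-depleted libraries (KAPA RiboErase kit, 200 ng total RNA) were made from single hippocampal slices. The authors deposited expected counts per gene from RSEM; 5.7% of the cells hold decimals, and the counts were rounded for testing. The submitters' processing notes name cutadapt 1.8.1, STAR 2.7.6a, RSEM 1.3.1, featureCounts 1.6, SAMtools 1.11 and the builds GRCm38.p6 and mm10, without their roles. The annotation release and strand setting are not given in the sources used here. Of 55421 gene IDs, 55154 were matched to a symbol and 267 were not. Coordinates and overlaps are those of the GRCm38 reference annotation, and promoters those of RefSeq (GRCm38.p6).

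The 16 vehicle libraries (8 T41B, 8 wild-type) were fitted together in edgeR 4.0.16 with R 4.3.3: filterByExpr with a minimum count of 10, TMM scaling, the mouse as a block, 1 stimulation term per genotype, quasi-likelihood F tests with 6 residual degrees of freedom, and Benjamini-Hochberg adjustment over all 18513 genes for each of 3 contrasts. The filter asks for enough counts in as many libraries as the smallest group holds, so stimulated libraries alone can pass a gene. Counts of rises and medians over tested list members are therefore in part set by the filter where sham levels were near 0. The CPM values use TMM library sizes, the SE is the log2 fold change divided by the square root of F, and fitted folds of genes near 0 depend on the prior count of 0.125. The mouse numbers in the labels join slices of the same animal. The deviations of the 2 slices from their group means correlated at 0.26, 0.23, 0.17 and 0.13 across genes in Mouse1510, Mouse1551, Mouse1553 and Mouse1579. Mice are separate animals. Libraries of the BD10-2 mice entered only 2 alternatives, since some labels there are carried by 2 libraries.

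The comparison, its members and the 62 lists (40 of pathways, 22 of cell types, 1004 genes, 919 tested) were chosen with earlier results of these data known, so the counts over lists are descriptions, set beside the share of all genes called. The rule for naming took the 12 largest called changes in each direction with a mean of at least 1 CPM and the same sign in all 4 mice, per list up to 6 called genes by size of change and up to 3 genes not called with the highest level, App and Thy1, and up to 8 genes per direction called in the difference. Bdnf, Cst7, Cxcl12, Cyld, Egr1, Gfap, Grin2c, H2-Aa, H2-Eb1, Ier5, Ifnb1, Il6ra, Irf8, Lama1, Nfkb1, Nfkbia, Nos1, Npas4, Nptx1, Nr4a1, Nrn1, Shank1, Shank3, Spp1, Tlr4, Tnf, Trem2, Tyrobp and Ucp2 were named outside it, after their values were seen. Alternatives were other scalings and filters, DESeq2 1.42.0, fits without pairing, fits over all mice or 1 genotype, and leaving out each mouse. The scripts were tested on simulated data. Other tools were limma 3.58.1, Python 3.11.15, numpy 2.4.6, pandas 2.3.3, scipy 1.17.1 and matplotlib 3.10.9.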

Additional observations from a re-analysis of the deposited data

Results flagged for a closer look

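The response differed between genotypes for 5 genes in the interaction term of the edgeR fit. On the log2 scale the T41B response minus the wild-type response was 1.551 for Malt1, 1.445 for Ccrl2, 1.015 for Daxx, 0.988 for Mmp14 and -6.954 for Slc4a5. The first 4 rose more in T41B slices, and Slc4a5 was above 10 CPM only in the stimulated slices of wild-type Mouse1509 and Mouse1513, where Ttr also stood highest among the wild-type libraries.

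In 5 of the 98 groups of 4 mice examined, 1 mouse lay far from the other 3 for their spread, which was narrow in some groups. By chance about 1 group in 20 is picked out. For Nfam1, an immune receptor adaptor gene, the within-mouse difference in log2(CPM + 1) was -1.639 in Mouse1579 against -1.473, -1.475 and -1.451 in the others, so all 4 were lower. The lymphocyte list, which here is Ccl5 alone, differed by 3.776 in Mouse1553 against 5.045, 4.848 and 4.966 in the others. Mouse1551 had the outlying mean over the Kruppel-like factor list (0.369, against -0.003, -0.01 and 0.038 in Mouse1510, Mouse1553 and Mouse1579). Mouse1579 had it over the list of adhesion molecules and integrins (0.53, against 0.595, 0.593 and 0.601 in Mouse1510, Mouse1551 and Mouse1553). It also had it over the TGF-beta list (0.366, against 0.583, 0.552 and 0.568 in the same mice).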

How the results depend on the processing

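No called direction among the 444 named genes was reversed in any alternative, although genes near 0 that were not called, such as App and Camk2a, changed sign in some, and 213 of the 279 called ones kept call and direction in every alternative, of 16, that gave a value for them. Higher calls in T41B slices stayed within 1.5 times of the main count, and lower calls did not. Without the replicate block, 3281 genes were called in T41B slices (1161 lower; 3227 of the 3281 are among the paired calls), 1721 in wild-type (429 lower) and 0 in the difference, where 1190 had an unadjusted p under 0.05; over all groups without the block the counts were 798 lower in wild-type and 0 in the difference (1683 unadjusted). With the replicate block over all mice, 2881 genes were lower in T41B slices and 3 were called in the difference (1 higher, 2 lower). Upper-quartile scaling gave 3697 lower genes in T41B and 2048 in wild-type slices; the cause was not tested. Under it the list medians of Kruppel-like factors, glycolysis, heat shock, voltage-gated channels, CA2 and CA3 cells, fibroblasts and thalamus changed sign. The difference called 376 genes (244 higher, 132 lower) with no filter on low counts and 82 (60 higher, 22 lower) with DESeq2. Leaving out 1 mouse gave 2937 to 4784 called genes in T41B slices (988 to 2211 lower), 1648 to 3918 in wild-type (1123 to 2348 higher, with as few as 434 lower, without Mouse1513) and 0 to 10 in the difference (0 to 9 higher, 0 to 3 lower). The lowest T41B count was without Mouse1551, and the count of 0 in the difference without wild-type Mouse1513, where 1953 genes had an unadjusted p under 0.05. For genes with 1 or 2 sham counts, the counting interval of the ratio spans more than 10-fold.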

Other observations

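Genes of several other lists were called in T41B slices, beside 24.7% of all genes tested. Enzymes of the prostaglandin pathway divided: of 17 tested genes 5 rose and 4 fell. Ptges (log2 fold change 3.15), the inducible synthase partner of Ptgs2, and the prostacyclin receptor gene Ptgir (3.20) rose. Ptgs1, the constitutive cyclooxygenase, fell from 13.6, 17.1, 16.4 and 15.2 CPM to 5.47, 5.14, 7.95 and 5.47 CPM in Mouse1510, Mouse1551, Mouse1553 and Mouse1579 (-1.38, SE 0.14), with no overlap. The leukotriene genes Alox5ap (-1.25) and Alox5 (-1.18) fell with it. Of 19 tested matrix protease genes 11 rose and 3 fell (0 to 3 with 1 T41B mouse left out). Mmp13 went from 0.186, 0.049, 0.0516 and 0.0519 CPM to 10.3, 11.4, 7.33 and 5.15 CPM (6.61, SE 0.39), and Mmp3 (6.03), Mmp12 (4.01) and the aggrecan protease gene Adamts4 (2.13) rose. For Mmp10 the counts summed to 2 in sham and 61 in stimulated slices, a ratio of 30.2 (exact 95% interval 8.02 to 255).

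In the list of adhesion molecules and leukocyte integrins 9 of the 15 tested genes rose and 3 fell. Vcam1 rose from 25.8, 30.2, 20.2 and 25.1 CPM to 128, 148, 131 and 93.3 CPM (log2 fold change 2.29, SE 0.17), and Selp (3.87), Sele (3.29) and Icam1 (1.87) rose, while Selplg (-2.37) and Itgam (-0.87), which leukocytes carry, fell. In the TGF-beta list 9 of 22 rose and 2 fell (6 or 7 rises and 1 to 3 falls with 1 T41B mouse left out), with rises in Thbs1 (3.81) and Lrrc32 (2.40), and the receptor gene Tgfbr2 fell (-0.85). Of 11 tested genes of arginine and polyamine metabolism 7 rose, with Nos2 (4.15), the inducible nitric oxide synthase, and Odc1 (1.56) among them, and 1 fell, the neuronal synthase gene Nos1 (-0.29), a call lost without Mouse1510 or Mouse1553. Of 20 tested genes of the cell cycle list 6 rose and none fell, among them Cdkn1a (1.58), Myc (1.54), Gadd45a (1.41) and Trp53 (1.14). In the list of cholesterol and lipid handling 10 of 30 rose and none fell (4 fell under upper-quartile scaling), including Ch25h (2.04), whose product makes 25-hydroxycholesterol, the lipid droplet gene Plin2 (1.88) and the exporter gene Abca1 (1.10). Of 16 tested genes of the APP processing list 3 were called, among which Adam17 (0.50) rose and Mme, neprilysin, which degrades amyloid beta, fell (-0.85). Of 17 tested genes of purine receptors and ectonucleotidases 5 rose and 3 fell. P2ry2 (2.43), P2ry6 (2.18) and Adora2a (1.66) rose and P2ry14 (-1.67) fell, besides P2ry12 and P2ry13, given above with the microglial genes.

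Averaged over the plaque-associated microglial list, the within-mouse difference in log2(CPM + 1) was 0.083, 0.137, 0.063 and -0.055 in the 4 T41B mice and 0.456, 0.336, 0.342 and 0.324 in wild-type Mouse1509, Mouse1513, Mouse1522 and Mouse1524, so that the genotypes did not overlap. This was noticed in the data and not tested.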
